A study of Homo sapiens with 4 samples.

Results

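Clusters of cohesin peaks without CTCF were defined by position in the peak lists of HG00731, a human lymphoblastoid cell line, that is, B cells immortalized with Epstein-Barr virus. An SMC1 peak was kept where it lay on chromosomes 1 to 22, shared no base with a CTCF peak and was over 1 kb from every protein-coding transcript start. Kept peaks were joined across gaps of at most 12.5 kb, and intervals of 5 or more peaks were called clusters. Of 94628 autosomal SMC1 peaks, 43124 (45.6%) were kept. They formed 24702 intervals, of which 1207 (4.89%) were clusters, and these held 8207 peaks. The number of clusters was 203 with gaps of at most 6 kb and 1932 with 20 kb. It was 712 where intervals ended at peaks not kept and 85 at a minimum -log10 q-value of 10. Because peak calls chose the members, their number, density and lack of CTCF are descriptions and were not tested.

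The study mapped the contacts of cohesin and CTCF by HiChIP, in which cross-linked, proximity-ligated chromatin is immunoprecipitated and the paired ends are sequenced. SMC1 was mapped after dual cross-linking with formaldehyde and then EGS (the FA-EGS samples), and CTCF after formaldehyde alone (FA). Each target had 2 biological replicates of the same untreated line, which the authors pooled into 1 peak list and 1 loop list. Target and cross-linking therefore cannot be told apart, and no value per replicate was available for a test. The intervals given with shares and medians are 95% intervals that cover counting error only. No expression was measured, so the state of the genes named here is not known from these data.

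Cohesin is a ring-shaped complex, with SMC1 as a core subunit, that extrudes chromatin loops until it is halted, most often at CTCF bound in a convergent orientation. Cohesin is also loaded and found at active enhancers and promoters without CTCF. Dense groups of enhancers around genes of cell identity are known as super-enhancers, and in B cells they are known around transcription factors such as PAX5 and IRF4. Chromatin marks of enhancers were not part of these data, and the clusters are named here only by their peaks.

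The sequence at the strongest summit is shown for 5 of the 10 clusters with most peaks, as examples of the DNA under their highest SMC1 enrichment. The cluster at ANKRD46 was left out of this choice, and clusters with fewer peaks held stronger summits. Each is 300 bp of hg38, plus strand. They are RREB1 (chr6:7109503-7109802), IRF4 (chr6:378170-378469), MSI2 (chr17:57463193-57463492), OSBPL3 (chr7:24842781-24843080) and NEDD9 (chr6:11429272-11429571). Capitals mark letters that matched a motif word: EBF in RREB1, an E-box in NEDD9, and NF-kappaB words in IRF4, MSI2 and OSBPL3. The word matched in IRF4 and OSBPL3 was added to the search after the IRF4 sequence was seen. Over all cluster peaks, the first and the added NF-kappaB word were in 1.96% and 1.52% of such windows. For intervals of 1 peak the shares were 1.52% and 1.49%.
RREB1: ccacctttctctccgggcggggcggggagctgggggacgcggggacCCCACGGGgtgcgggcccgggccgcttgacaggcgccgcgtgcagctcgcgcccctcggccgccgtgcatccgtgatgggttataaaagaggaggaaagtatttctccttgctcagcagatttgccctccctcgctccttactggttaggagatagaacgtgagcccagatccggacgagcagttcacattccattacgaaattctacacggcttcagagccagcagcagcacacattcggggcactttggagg
IRF4: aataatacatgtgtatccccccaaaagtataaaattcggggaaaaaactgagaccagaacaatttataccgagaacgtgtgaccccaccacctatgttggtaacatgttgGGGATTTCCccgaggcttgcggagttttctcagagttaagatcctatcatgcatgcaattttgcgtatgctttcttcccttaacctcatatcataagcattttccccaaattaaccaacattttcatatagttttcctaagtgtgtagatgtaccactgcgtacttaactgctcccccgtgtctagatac
MSI2: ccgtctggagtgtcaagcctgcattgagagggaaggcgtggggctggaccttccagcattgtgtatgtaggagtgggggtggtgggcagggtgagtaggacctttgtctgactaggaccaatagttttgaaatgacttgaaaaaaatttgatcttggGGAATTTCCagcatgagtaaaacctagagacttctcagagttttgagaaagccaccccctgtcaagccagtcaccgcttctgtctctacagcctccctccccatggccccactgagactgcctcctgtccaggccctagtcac
OSBPL3: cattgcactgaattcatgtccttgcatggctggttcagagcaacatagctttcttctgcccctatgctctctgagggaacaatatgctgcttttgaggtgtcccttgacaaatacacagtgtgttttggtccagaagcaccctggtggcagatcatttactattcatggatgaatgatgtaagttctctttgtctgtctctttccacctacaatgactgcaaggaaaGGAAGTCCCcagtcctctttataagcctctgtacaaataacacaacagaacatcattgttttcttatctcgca
NEDD9: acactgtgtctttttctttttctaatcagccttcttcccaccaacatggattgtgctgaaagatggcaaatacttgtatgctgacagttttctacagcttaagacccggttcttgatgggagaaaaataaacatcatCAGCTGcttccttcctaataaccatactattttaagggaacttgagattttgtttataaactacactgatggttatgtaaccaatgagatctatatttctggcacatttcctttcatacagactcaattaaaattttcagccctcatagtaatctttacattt
The fold enrichment at these summits was 5.69 in RREB1, 5.25 in IRF4, 4.27 in MSI2, 4.25 in OSBPL3 and 3.99 in NEDD9. The RREB1, MSI2 and OSBPL3 summits lay in coding introns, IRF4 was intergenic, and NEDD9 lay in a gene that is not protein-coding. The RREB1 summit was 6.081 kb from the left end of its interval, close to RREB1 coding starts at 4.025 to 4.459 kb. Its window had 62.3% GC, against a median of 44% in cluster windows.

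The clusters were broad and sparse. The median interval spanned 32.0 kb (quartiles 25.4 and 41.7 kb, range 3.85 to 140 kb), with a median gap of 5.32 kb between neighbouring peaks. Peaks covered a median of 11.5% of the interval. Together the clusters spanned 42.8 Mb, of which their peaks covered 4.95 Mb. By number of peaks, 474 clusters (39.3%) had exactly 5, 592 had 6 to 9, and 141 (11.7%) had 10 or more. Just outside the threshold were 930 intervals of 4 peaks, with a median width of 18.4 kb and a median fold enrichment of 2.70. The clusters of 5 peaks had a median width of 25.7 kb and a median fold enrichment of 2.65, so the threshold cuts through a continuous range.

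**Figure D1:**
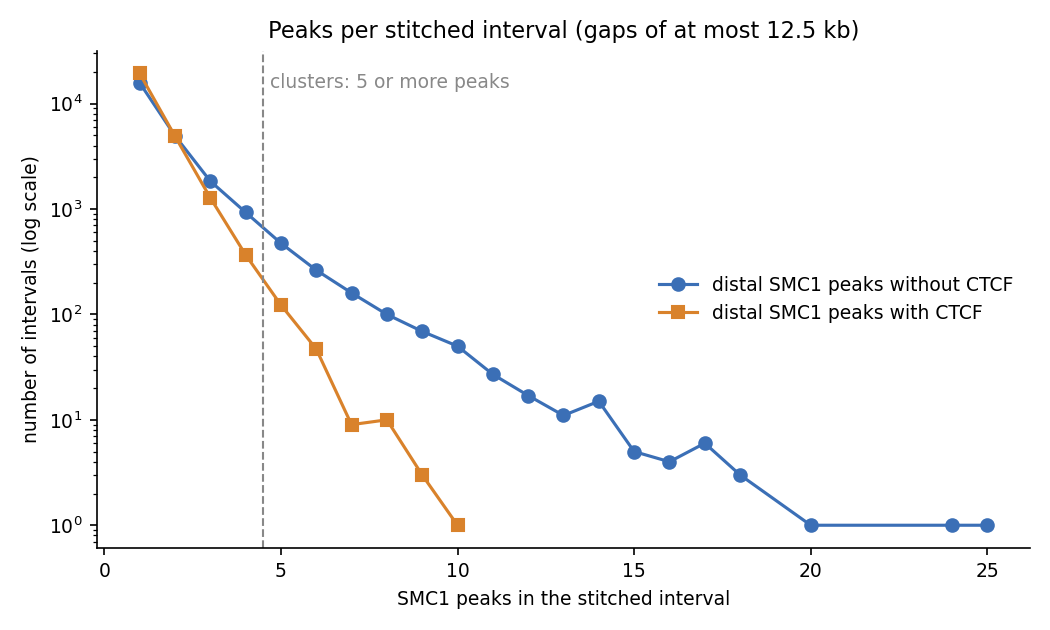
Number of stitched intervals (log scale) by the SMC1 peaks they hold, for distal SMC1 peaks without CTCF (circles) and with CTCF (squares). Intervals without CTCF reach 25 peaks and those with CTCF 10, and 1207 against 193 intervals lie right of the dashed line at 5 peaks.

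SMC1 peaks that did overlap CTCF rarely lay in such groups. The 35567 distal peaks with CTCF gave 26104 intervals under the same joining, and 193 of these had 5 or more peaks. They held 1077 peaks (3.03%), against 19.0% of the peaks without CTCF. The total number of peaks differed between the classes (43124 and 35567), and the rule itself asks for many peaks, so the contrast is given as a description.

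Single peaks in clusters had low folds. The median fold enrichment over local background was 2.58 (2.57 to 2.60) in cluster peaks, 2.71 (2.70 to 2.72) in peaks of intervals of 2 to 4, and 2.77 (2.76 to 2.79) in peaks that stood alone. Distal SMC1 peaks with CTCF had a median of 4.65 (4.62 to 4.67). The median -log10 q-value ran the other way among peaks without CTCF, with 7.52 in clusters, 6.99 in intervals of 2 to 4 and 6.41 in lone peaks, while peaks with CTCF reached 33.0. Cluster peaks were 482 bp wide in the median, against 439 bp for lone peaks and 951 bp for peaks with CTCF. Clustered peaks were thus slightly less enriched over local background, slightly wider and called at a slightly higher score than lone ones. All 3 classes without CTCF were far below peaks with CTCF. The rule chose peaks with near neighbours, and the fold is over local background without input. The part of neighbouring peaks in these differences was not tested.

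Most clusters lay in gene bodies. Of their peaks, 64.0% were in coding introns, 3.50% in coding exons, 13.1% in other genes and 19.4% between genes. Coding introns held 53.2% of lone peaks and 47.6% of distal peaks with CTCF, and intergenic sequence held 28.9% and 33.8%. In all, 926 clusters (76.7%, 74.3 to 79.0) overlapped a coding gene and 611 (50.6%, 47.8 to 53.4) lay wholly inside 1 coding gene. The host genes were long, with a median of 134 kb, while the median coding gene was 27.6 kb. A long gene offers more room for joined peaks, and its part in these shares was not tested.

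CTCF peaks lay inside or near many clusters, although by the rule they overlapped none of the cluster peaks. A CTCF peak lay between the members of 726 clusters (60.1%, 57.4 to 62.9), and a coding start lay inside 320 (26.5%, 24.1 to 29.1). Neither was found inside 401 clusters (33.2%, 30.6 to 35.9). The nearest CTCF peak outside a cluster was a median of 7.12 kb from its edge, and for 775 clusters (64.2%) it was within 10 kb. The nearest coding start was a median of 11.4 kb away (quartiles 0 and 47.9 kb), and 147 clusters (12.2%) were over 100 kb from any. Clusters also had neighbours, since 511 (42.3%) had another cluster within 100 kb. The shares and CTCF distances given here were not taken for other intervals, so they describe clusters only. All 22 autosomes held clusters, from 27.3 per 100 Mb on chromosome 4 to 57.5 per 100 Mb on chromosome 10.

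The cluster with the most peaks reached over the start of MACC1 (chr7:20179800-20319892), a regulator of growth factor signalling described in colon cancer. MACC1 covered 26.8% of the interval, and 14 of the peaks were intergenic, 6 in coding introns and 5 in other genes. It had 25 peaks over 140 kb with a median fold enrichment of 2.28, held 9 CTCF peaks, and had no loop to a coding promoter outside it in either list. RREB1, a zinc finger protein that binds Ras-responsive elements, came next with 24 peaks over 112 kb (chr6:7103572-7215811). Its peak folds ranged from 2.03 to 5.69, and 23 of the 24 peaks were in coding introns. OSBPL3, a lipid transfer protein, held 20 peaks over 128 kb (chr7:24821613-24949766). Clusters of 18 peaks were found at NEDD9, a scaffold of integrin signalling, at METTL8 and at ANKRD46, and clusters of 17 peaks at IRF4, MSI2 and RAPGEF1 and, 30.1 kb from the start of PRKACG, inside PIP5K1B. In all, 6 clusters had 17 peaks, so the cut at 10 clusters fell within a tie and not all of the 6 are named. The 10 clusters named here held few genes of the B cell lists, with IRF4 as the exception.

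IRF4, a transcription factor of activated B cells and plasma cells, lay in a cluster of 17 peaks over 103 kb (chr6:372599-475116). Its folds from left to right were 3.90, 5.25, 2.16, 2.04, 2.21, 1.77, 2.16, 2.33, 2.50, 4.26, 3.34, 2.53, 3.67, 4.25, 2.27, 2.80 and 3.02. The strong peaks were at the left end and in the middle, with a run of weak peaks around the gene start. The cluster at TNFRSF13B, which encodes the receptor TACI of B cells, had 14 peaks over 52.7 kb (chr17:16923965-16976685) and held no CTCF peak. The nearest CTCF peak outside was 653 bp from its edge. The folds of this cluster ran from 1.74 to 3.61. EBF1, a factor that specifies the B lineage, had its largest cluster of 14 peaks over 67.1 kb (chr5:159031159-159098272), all in introns, with folds between 1.87 and 3.39. The EBF1 peaks were thus even in height, while 1 peak stood out at BCL2 (chr18:63096594-63154574), with a fold of 5.36 beside 10 peaks at 1.66 to 2.69.

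**Figure D2:**
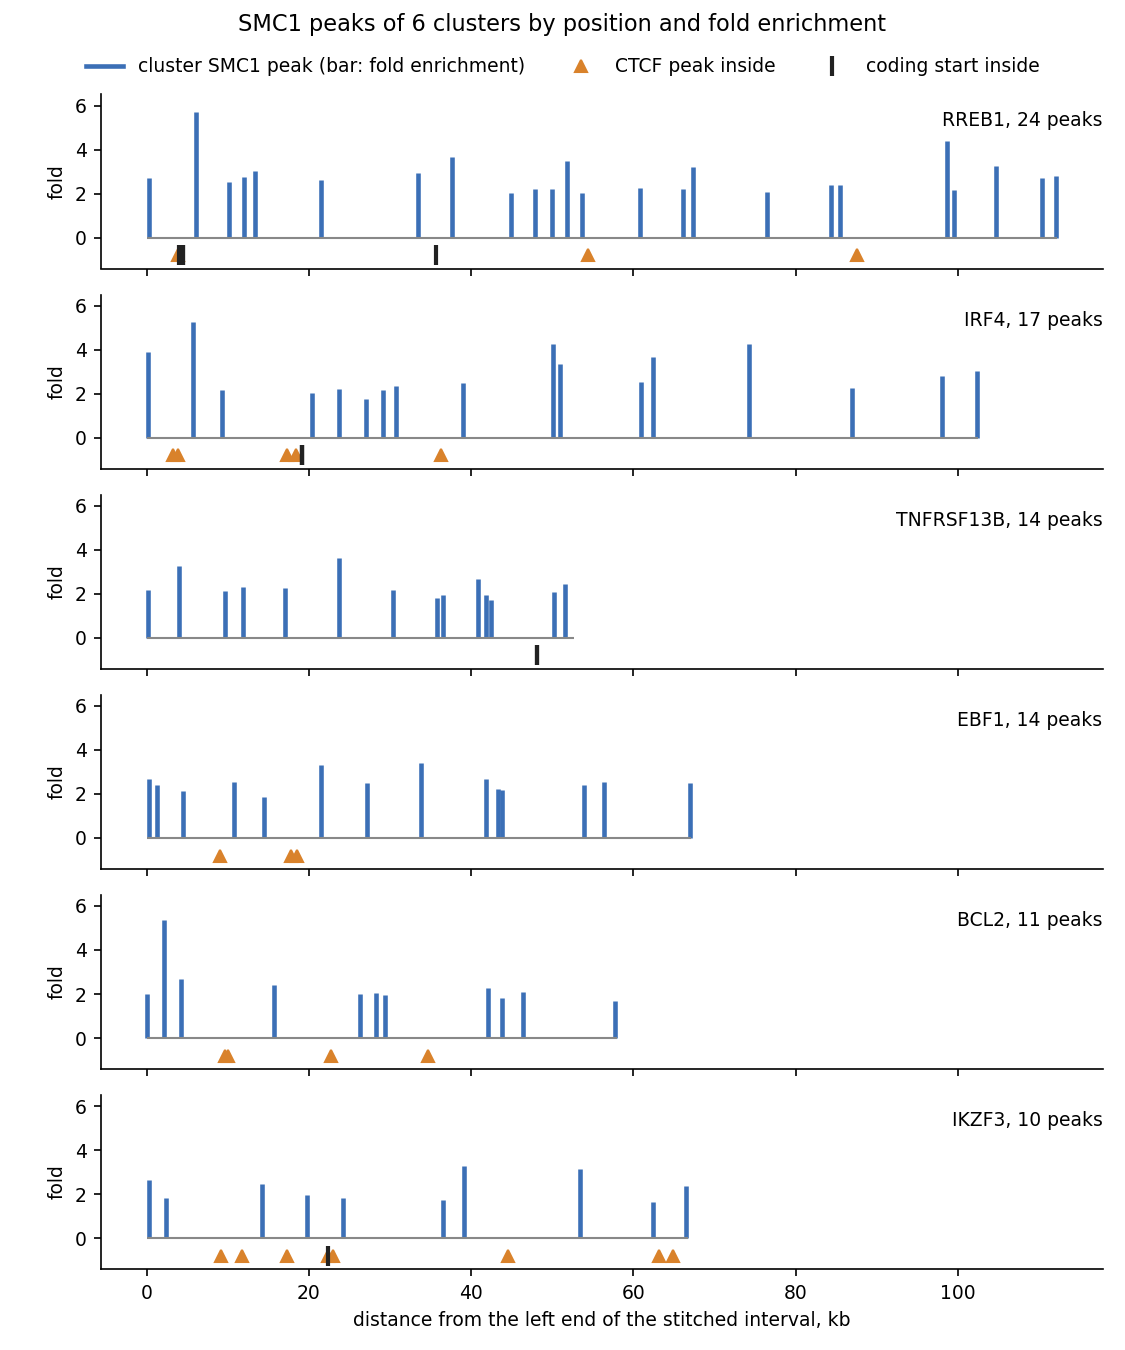
SMC1 peaks of 6 clusters by distance from the left end of the interval (kb). Bars give the fold enrichment of each cluster peak, triangles mark CTCF peaks and short black lines coding starts inside. RREB1 and IRF4 spread over 112 and 103 kb, TNFRSF13B has no triangle, and BCL2 has 1 tall bar of 5.36.

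By median fold enrichment per cluster, the values ran from 1.78 to 4.93. The lowest 3 were at BIRC3 (1.78), an inhibitor of apoptosis that acts in NF-kappaB signalling, at SLAMF1 (1.83), a lymphocyte surface receptor, and at SLC15A4 (1.86), a transporter of the endolysosome. The highest 3 were at NFATC1 (4.08), a calcium-dependent transcription factor, at ADGRD1 (4.12), an adhesion G protein-coupled receptor, and in an interval assigned to FOXD4L5 (4.93). The last (chr9:63337859-63355336) held the strongest peak of any cluster, with a fold of 9.99, and its nearest coding start was 1930 kb away. These 3 clusters of highest fold had no loop to a coding promoter in either list, nor had the ones at BIRC3 and SLAMF1 named above. Of all clusters, 46.9% had such a loop in either list.

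The next question was which promoters the clusters contact. A loop linked a cluster to a promoter where one 5 kb anchor touched the cluster and the other, outside it, lay within 1 kb of a coding start. The 2 loop lists are named here by their labels, since the labels and the description of the study assign them to opposite targets. On autosomes the list labelled SMC1 held 27785 loops with 783375 read pairs, and the list labelled CTCF 79406 loops with 2635261 read pairs. The list labelled SMC1 linked 189 clusters (15.7%, 13.7 to 17.8), against 5.91% of all 24702 intervals. This cluster share was 9.53% with loops of at least the median read pairs. It was 10.3% where intervals ended at peaks not kept. Neither has a matching value for all intervals. The list labelled CTCF linked 551 (45.7%, 42.9 to 48.5), against 18.0% of all intervals. Both lists linked 174 clusters, which was 92.1% of the 189 and 31.6% of the 551, and 566 clusters (46.9%) were linked in either.

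The share of linked intervals rose with the number of peaks. It was, by loops labelled SMC1, 4.05% (3.75 to 4.37) for lone peaks, 8.17% (7.58 to 8.80) for 2 to 4 peaks, 10.97% (8.46 to 14.1) for 5, 17.1% (14.2 to 20.3) for 6 to 9 and 25.5% (19.1 to 33.3) for 10 or more. By loops labelled CTCF the same classes had 12.7% (12.1 to 13.2), 24.7% (23.8 to 25.7), 37.6% (33.3 to 42.0), 48.0% (43.97 to 52.0) and 63.1% (54.9 to 70.6). At the threshold there was no step, since intervals of 4 peaks had 12.6% (10.6 to 14.9) and 37.4% (34.4 to 40.6).

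Interval width also rose with the number of peaks, and its part in the rise was not tested beyond the shares at equal width. Among intervals of 20 to 30 kb, 13.1% of clusters (10.03 to 16.9) and 12.5% of intervals of 2 to 4 peaks (9.91 to 15.6) were linked in the list labelled SMC1. The shares in the list labelled CTCF were 42.1% (37.2 to 47.2) and 37.8% (33.8 to 42.1). Between 10 and 20 kb they were 12.5% and 10.4% in the first list, and 35.3% (27.8 to 43.6) and 28.8% (27.1 to 30.5) in the second. The intervals overlap in each of these pairs. Counted by 5 kb bins that hold a kept peak, 4.74% (4.28 to 5.25) of the bins of clusters anchored a promoter loop in the list labelled SMC1, against 4.55% (4.26 to 4.87) for 2 to 4 peaks and 3.82% (3.55 to 4.12) for lone peaks. The list labelled CTCF gave 16.6% (15.8 to 17.5), 15.2% (14.7 to 15.7) and 12.0% (11.5 to 12.5). Per bin, clusters were above lone peaks in both lists. Against intervals of 2 to 4 peaks their intervals overlapped under the label SMC1 and did not overlap under the label CTCF, where clusters were higher by the values given. Loops were called with peaks as anchors, so loops and peaks are not independent.

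**Figure D3:**
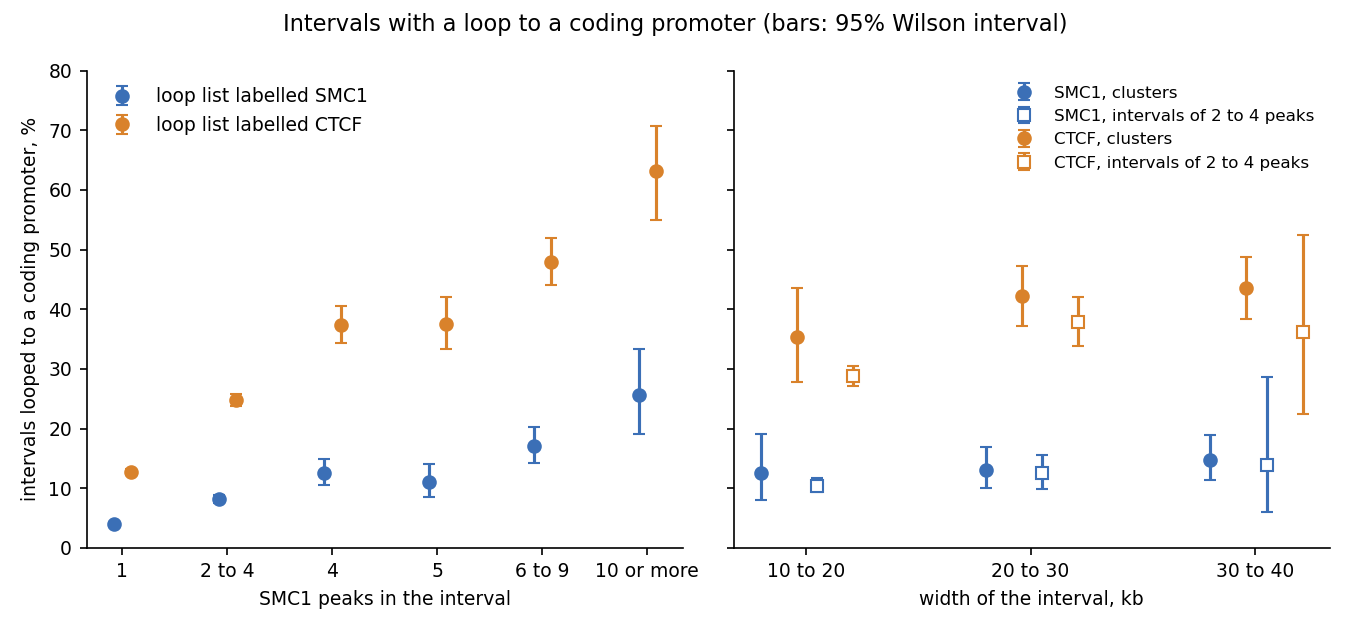
Share of intervals with a loop to a coding promoter (%), by number of SMC1 peaks (left) and by interval width (right), in the loop lists labelled SMC1 and CTCF. Points are shares and bars 95% Wilson intervals. Shares rise from 4.05 to 25.5% and from 12.7 to 63.1% with peak number, while clusters and intervals of 2 to 4 peaks of equal width have overlapping bars.

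CTCF at the ends of these loops was set beside that of lone peaks. Of 548 pairs of a cluster and a promoter loop in the list labelled SMC1, 56.2% (52.0 to 60.3) had a CTCF peak in the anchor on the cluster side and 94.2% (91.9 to 95.8) on the promoter side. Of 1914 such pairs labelled CTCF, 39.2% (37.0 to 41.4) had one on the cluster side and 80.9% (79.1 to 82.6) on the promoter side. Promoter loops of lone peaks had one on the side of the peak in 68.9% (65.8 to 71.8) and 53.1% (51.3 to 54.8), and on the promoter side in 91.2% and 79.6%. Intervals of 2 to 4 peaks had 60.4% (57.7 to 63.2) and 41.2% (39.7 to 42.7) on their own side. An anchor that held a cluster peak and neither a CTCF peak nor a coding start within 1 kb made up 34.3% and 52.7%. By such anchors alone, 95 clusters (7.87%, 6.48 to 9.53) and 428 clusters (35.5%, 32.8 to 38.2) were linked. Shares by such anchors were not taken for other intervals, so they describe clusters only. The promoter loops of clusters spanned a median of 100 kb in both lists. They held a median of 21 and 29 read pairs, and the observed over expected ratio was 3.87 and 2.93 in the median. Promoter loops of lone peaks had 3.68 and 3.49, and all loops had 3.998 and 4.03.

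The far ends of all loops that left a cluster were compared with those of all intervals, clusters included. Of 1858 pairs of a cluster and a loop that left it in the list labelled SMC1, the far anchor was at a coding promoter in 29.5% (27.5 to 31.6), against 28.7% over all intervals. A CTCF peak and no coding promoter was found in 60.1% (57.8 to 62.3), against 58.9%. Under the label CTCF, 7436 pairs gave 25.7% (24.8 to 26.7) at promoters, against 24.8%, and 49.3% (48.2 to 50.5) with CTCF and no promoter, against 52.0%. The far anchor was on another cluster in 9.26% (8.02 to 10.7) and 13.8% (13.0 to 14.6) of the pairs, against 4.98% and 7.37% over all intervals and 3.55% and 4.19% for lone peaks. Loops between clusters are counted from both ends, and 511 clusters have another within 100 kb. At least 1 loop of any kind touched 435 clusters (36.0%, 33.4 to 38.8) in the first list, where 14.3% of all intervals were touched. The second list touched 957 (79.3%, 76.9 to 81.5), where 40.5% of all intervals were.

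Many linked clusters had no loop to their nearest coding gene. Of the linked clusters, 88 of 189 (46.6%, 39.6 to 53.7) in the list labelled SMC1 and 335 of 551 (60.8%, 56.7 to 64.8) in the list labelled CTCF had a loop to their nearest coding gene. With peaks of a minimum -log10 q-value of 10, the shares were 72.2% (49.1 to 87.5) and 70.2% (57.3 to 80.5). Loops to 2 or more genes were found for 38 of the 189 (20.1%) and 149 of the 551 (27.04%). A far anchor that overlapped the cluster was not counted. Starts inside the cluster or close to its edge could thus be missed, which lowers these shares. Among linked clusters with no start inside, the nearest gene was reached by 60 of 117 (51.3%, 42.3 to 60.2) and 256 of 388 (66.0%, 61.1 to 70.5). Starts close to the edge could still be missed there. None of the shares in this paragraph was taken for other intervals, so they describe clusters only.

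The cluster with most read pairs in promoter loops was at CYP2W1 under the label SMC1 and at IKZF3 under the label CTCF. The cluster of 10 peaks at IKZF3, the lymphoid factor Aiolos (chr17:39755835-39822627), had 12 promoter loops with 417 read pairs under the label SMC1 and 14 with 1384 under the label CTCF. Its strongest loop in the latter held 313 read pairs where 53.4 were modelled, over 105 kb. The cluster of 5 peaks at TNFSF9, a ligand of the TNF family (chr19:6519094-6556814), had 16 loops with 515 read pairs and 17 with 1041, to the promoters of CD70, C3, SH2D3A, TNFSF14 and others. That at PPCDC (chr15:75104623-75131649) held 6 peaks and no CTCF peak, and its loops (8 with 344 read pairs and 14 with 936) mostly ended at C15orf39. The cluster at CYP2W1 (chr7:980357-1007996) had 711 read pairs in 11 loops under the label SMC1, to C7orf50, COX19, GPER1, GPR146 and ZFAND2A. All of these used the anchor chr7:990001-995000, which held a CTCF peak of fold 15.8. By anchors with a cluster peak and neither CTCF peak nor coding start, CYP2W1 had 0 loops in either list. TNFSF9 had 0 and 3 such loops, IKZF3 4 and 5, and PPCDC 7 and 13. The other clusters among the 10 with most read pairs in either list were at ACP5, BCAS1, BCAS4, BCL2, CD82, NINJ2, PACS1, RASSF5, RIC1, SREBF1 and a second interval at PPCDC. Most of these clusters have few peaks, and none but IKZF3 and BCL2 has 10 or more.

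BCL2, which blocks apoptosis, was reached by 3 clusters in each list. The left cluster of 11 peaks had 14 loops to the BCL2 promoter in each, with 287 (label SMC1) and 616 (label CTCF) read pairs, over 165 to 210 kb. The strongest held 45 read pairs where 6.95 were modelled, and 84 where 22.6 were. The other two BCL2 clusters, of 12 and 8 peaks, had 86 and 107 read pairs in the first list and 202 and 576 in the second.

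The nearest coding genes of the 1207 clusters were 957 distinct genes. Of these, 188 were nearest to 2 or more clusters, 45 to 3 or more and 13 to 4 or more. KLF6, a zinc finger factor, had 6 clusters with 44 peaks, TLE3, a corepressor, 5 with 37, and MEF2C, a factor of B cell proliferation, 5 with 36. EBF1, MBNL1, ARHGAP26, BTG1, SIPA1L1, TNIK, ETS1, TNFAIP3, CDC42SE2 and FOXN3 had 4 each. These genes were picked after their counts were seen.

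Genes of B cell identity were often nearest to a cluster. Of 26 B cell transcription factors, 14 (53.8%) were the nearest gene of at least 1 cluster, while 5.10% of 18765 autosomal coding genes were. The 14 were BATF, BCL11A, EBF1, ETS1, ID3, IKZF3, IRF4, MEF2C, PAX5, POU2AF1, PRDM1, RUNX1, RUNX3 and TCF4. EBF1 had 38 peaks in 4 clusters, MEF2C 36 in 5, ETS1 28 in 4, PRDM1 21 in 3 and PAX5 19 in 3. By loops, 4 of the 26 (15.4%) were linked in the list labelled SMC1, where 1.11% of all coding genes were. By loops labelled CTCF 10 (38.5%) were linked, where 3.48% of all coding genes were.

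Individual links of these factors differed between the lists. PAX5, the factor that maintains B cell identity, was reached by 2 clusters in the list labelled SMC1 and by 3 in the other. The cluster at PAX5 itself (7 peaks) had 3 loops with 115 read pairs in the first and 1 with 187 in the second. A cluster of 6 peaks nearest to GRHPR looped to PAX5 over 265 to 295 kb, with 12 and 123 read pairs. IRF4 was reached not from its own cluster, whose start lies inside it, but from clusters nearest to DUSP22, with 15 and 16 read pairs under the label SMC1, and 109 under the label CTCF. EBF1 was linked in the list labelled CTCF by 2 clusters with 41 and 312 read pairs, the latter of 12 peaks in its introns. RUNX3, a RUNX family factor, was linked in the list labelled SMC1 by 3 loops with 112 read pairs. Linked in the list labelled CTCF were also MEF2C, ETS1, ID3, PRDM1, RUNX1 and TCF4, with 19 to 231 read pairs per cluster. By anchors with a cluster peak and neither CTCF peak nor coding start, the RUNX3 cluster had 0 loops under the label SMC1. Under the label CTCF, such loops numbered 0 for the EBF1 cluster of 14 peaks and 5 for that of 12. They numbered 0 for the MEF2C cluster of 13 peaks, and 1, to PAX5, for a GRHPR cluster of 15 peaks.

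Of 23 genes of B cell receptor signalling, 6 (26.1%, against 5.10% of all coding genes) were nearest to a cluster: CR2, INPP5D, PLCG2, PRKCB, PTPRC and SYK. SYK and PLCG2, a kinase and a phospholipase downstream of the receptor, had 5 and 6 peaks, and PRKCB and INPP5D 8 each. The PTPRC clusters of 8 and 7 peaks lay 265 and 442 kb from its start. PLCG2 (75 read pairs) and VAV1 (27) were linked under the label SMC1 (8.70%, against 1.11%). None was linked under the label CTCF, where the share of all coding genes, 3.48%, would give less than 1 gene of 23. By anchors with a cluster peak and neither CTCF peak nor coding start, the PLCG2 and TNFSF9 clusters had 0 loops under the label SMC1. VAV1 was reached from the TNFSF9 cluster.

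In NF-kappaB and TNF family signalling, the pathway that the viral protein LMP1 drives in such lines, 10 of 26 genes (38.5%, against 5.10% of all coding genes) were nearest to a cluster. They were BIRC3, CD70, NFKB1, REL, TNFAIP3, TNFAIP8, TNFRSF13B, TNFRSF8, TRAF1 and TRAF3. TNFAIP3, the ubiquitin-editing enzyme A20 that restrains the pathway, had 4 clusters with 25 peaks. Loops reached 5 of the 26 (19.2%, against 1.11%) by the label SMC1 and 7 (26.9%, against 3.48%) by the label CTCF. The TNFAIP3 cluster of 10 peaks held 36 and 72 read pairs in 1 loop per list over 60 kb, and a cluster of 5 peaks 95 and 339 read pairs over 150 to 160 kb. NFKBIA, the inhibitor IκBα, was nearest to no cluster and was reached from one beside PSMA6, with 58 and 397 read pairs. CD70 was reached from the TNFSF9 cluster with 201 and 697. By anchors with a cluster peak and neither CTCF peak nor coding start, the TNFAIP3 cluster of 10 peaks had 0 loops in either list. The TNFAIP8 and TRAF3 clusters of 11 peaks also had 0 such loops in either list. The TNFRSF1B cluster, which reached TNFRSF8, had 0 and 2. Of the subunit genes, NFKB1 and REL were nearest to clusters, and NFKB2, RELA and RELB were not.

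Among activation and adhesion genes, cytokines and their receptors, 9 of 29 (31.0%, against 5.10% of all coding genes) were nearest to a cluster. By loops, 7 (24.1%, against 1.11%) were linked with the label SMC1 and 6 (20.7%, against 3.48%) with the label CTCF. CD86, a costimulatory ligand, was reached from a cluster beside ILDR1 with 113 and 666 read pairs. IL10 was reached from a cluster of 7 peaks with 61 and 375, and CIITA, the activator of MHC class II genes, from a cluster of 5 peaks with 31 and 206. Of 14 survival and cell cycle genes, 5 (35.7%) were nearest, 3 (21.4%) were linked with the label SMC1 and 5 (35.7%) with the label CTCF, against the same shares of all coding genes. MYC was nearest to 3 clusters with 35 peaks.

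Lists of other cell types and of housekeeping genes had counts too small to set apart from the shares of all coding genes (5.10% nearest, 1.11% and 3.48% linked). Of 23 T cell genes, 2 (8.70%) were nearest to a cluster, CD2 and CTLA4, and none was linked. Of 20 transcription factors of non-blood tissues and 12 housekeeping genes, none was nearest, and at 5.10% about 1 gene would be. ACTB, 1 of the 12 (8.33%), was linked from 2 clusters in each list. Kept peaks were not absent there, as 14 of the 20 non-blood factors (70%) were nearest to an interval of 1 to 4 peaks. So were 51.8% of all coding genes, 92.3% of the B cell factors, 87.0% of receptor signalling, 78.6% of survival, 69.6% of T cell, 65.5% of activation, 61.5% of NF-kappaB and TNF, and 58.3% of housekeeping genes. The lists of 12 to 29 genes with shares near 51.8%, such as housekeeping genes (7 of 12), differ from it by a few genes only. Gene length differed between lists. Its median was 105 kb for the B cell factors, 82.4 kb for receptor signalling, 16.0 kb for NF-kappaB and TNF genes and 10.5 kb for non-blood factors, and its part in these counts was not tested.

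**Figure D4:**
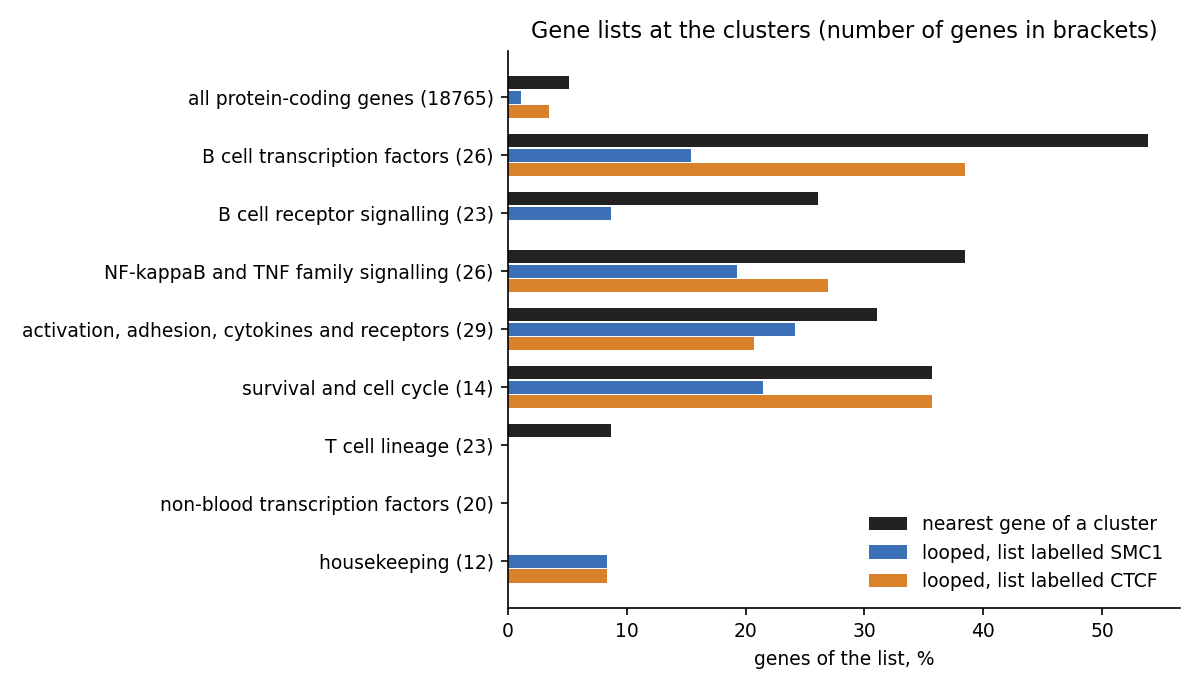
Share of the genes of each list (%) that are the nearest coding gene of a cluster (black), or are looped to one in the lists labelled SMC1 (blue) and CTCF (orange), with the number of genes in brackets. B cell transcription factors reach 53.8% and all coding genes 5.10%, and non-blood factors are at 0.

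The last comparison was of sequence. The CTCF core, a word of 12 letters given here by name, was in 3 of 8207 cluster summit windows (0.0366%), in 0.260% of windows of lone peaks and in 8.01% (7.73 to 8.30) of windows of distal peaks with CTCF. Words were searched on both strands in 300 bp around each summit. The rule removed peaks with CTCF, so the low share at cluster peaks is a description. Most peaks with CTCF did not hold the exact word either, so a missing match does not show a missing site.

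For most words of B cell factors, the intervals of cluster peaks and lone peaks overlapped. RUNX (TGTGGTT) was in 8.57% (7.98 to 9.19) of cluster windows and 8.88% (8.44 to 9.33) of lone ones. POU2F (ATTTGCAT) was in 3.35% and 3.47%, PU.1 (GAGGAAGT) in 2.85% and 3.24%, and EBF (CCCNNGGG) in 8.18% and 7.94%. NF-kappaB (GGANTTTCC) was in 1.96% (1.68 to 2.29) against 1.52% (1.34 to 1.72), and the added word GGGANTTCC in 1.52% (1.28 to 1.81) against 1.49% (1.31 to 1.69). AP-1 (TGANTCA) was in 12.6% (11.9 to 13.3) against 14.1% (13.6 to 14.7), and the ETS-IRF composite (GGAANTGAA) in 3.02% (2.67 to 3.41) against 3.87% (3.58 to 4.19). Of the words searched, AP-1, the ETS-IRF composite and the CTCF core had intervals that did not overlap, and all 3 were lower in clusters. ETS (CCGGAAGT) was in 0.146% (0.0837 to 0.255) against 0.298% (0.224 to 0.396). Among windows of low GC content the composite was in 2.999% (2.41 to 3.73) of cluster windows and 4.26% (3.75 to 4.83) of lone ones, while at middle and high GC content its intervals overlapped. AP-1 was in 12.1%, 14.1% and 11.6% of cluster windows at low, middle and high GC content and in 13.1%, 16.4% and 13.1% of lone ones, lower in clusters each time, with overlapping intervals in these smaller classes. The NF-kappaB word GGANTTTCC was higher in cluster windows at middle GC content, in 2.80% (2.24 to 3.50) against 1.70% (1.38 to 2.09) of lone ones, and its intervals overlapped at low and high GC content. The E-box (CAGCTG) was in 15.1% and 14.5%, and MEF2 (CTATTTATA) in 0.524% and 0.526%.

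Distal peaks with CTCF held the E-box in 15.4%, RUNX in 6.53%, POU2F in 2.201% and EBF in 10.2%. In 33558 RefSeq promoter windows of equal length (GRCh38.p14), shares were 4.28% for RUNX, 1.75% for POU2F, 2.58% for PU.1, 19.1% for EBF, 1.66% for NF-kappaB, 1.84% for its added word, 1.86% for the composite, 7.68% for AP-1, 4.16% for ETS, 18.0% for the E-box, 0.390% for MEF2 and 0.465% for the CTCF core. Base composition moved with these shares. The median GC content was 44% in cluster windows, 43.3% in lone peaks, 46.0% in peaks with CTCF and 58.7% in promoters, and its part was not tested for the promoters.

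**Figure D5:**
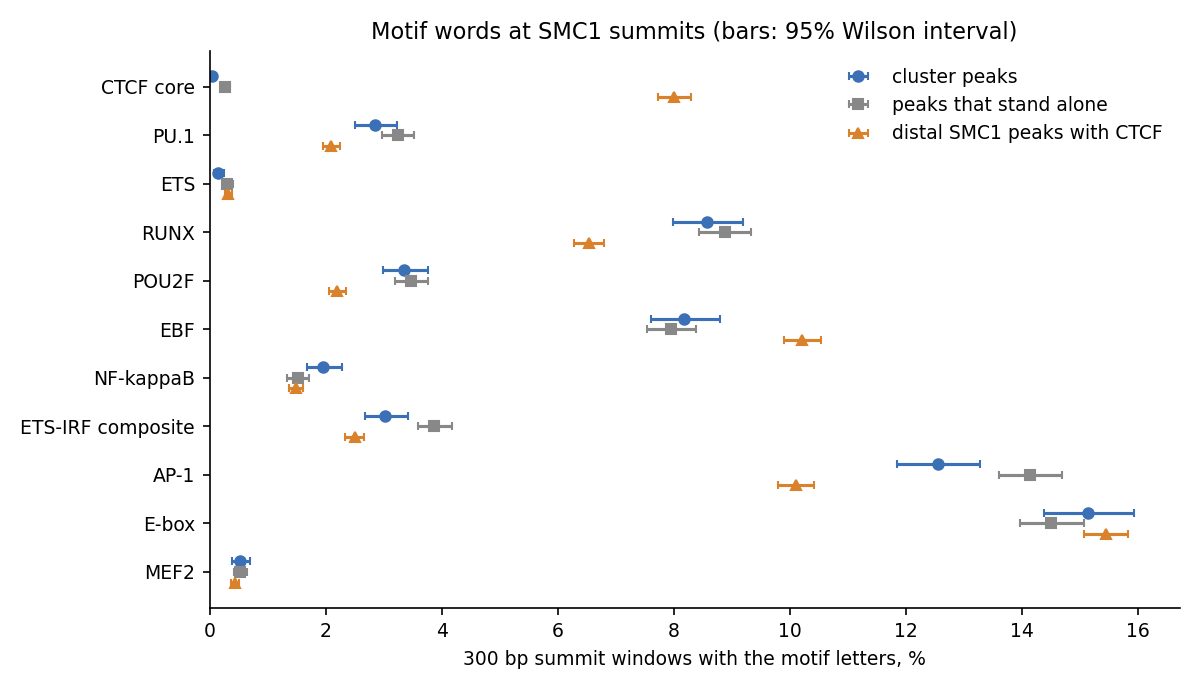
Share of 300 bp summit windows (%) that hold each motif word on either strand, for cluster peaks (circles), lone peaks (squares) and distal SMC1 peaks with CTCF (triangles), with 95% Wilson intervals. Circles and squares lie close together, with AP-1 at 12.6 and 14.1%, and the CTCF core is at 8.01% only in peaks with CTCF.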

How the data were processed

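The samples were 2 SMC1 and 2 CTCF HiChIP libraries of 1 cell line, pooled per target by the authors before deposit. According to the study's methods, reads were aligned to hg38 with BWA-MEM, and the authors called peaks with MACS3 3.0.1 without input. The deposited peak lists give the fold enrichment at the summit, a ratio over local background, and the -log10 q-value. The deposited loop lists give the read pair count and the expected count of each pair of 5 kb anchors from MAPS. Read depth per library is not given in these lists, and they hold no value per replicate. The list labelled SMC1 holds 28012 loops and that labelled CTCF 80487. The study's supplement gives the same numbers to the opposite targets, 80487 to SMC1 and 28012 to CTCF. Lists therefore go by label, and the label does not settle the target.

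Coding starts were those of GENCODE release 44. Overlap meant 1 shared bp. Scripts in Python 3.11.15 with pandas 2.3.3, SciPy 1.17.1 and pysam 0.24.0 joined peaks, found nearest starts and searched motifs, and were tested on simulated data. Shares have Wilson intervals and medians rank intervals at 95%. Named clusters were the 10 with most peaks, the 10 with most read pairs in promoter loops per list, up to 8 per B cell, receptor and NF-kappaB gene list, and the 3 lowest and highest by median fold. Sequences were from the 10 largest clusters, leaving out the 1 on chromosome 8, and of the rest the 5 with the highest summit fold were taken, and 1 other sequence is not reported here. Members and gene lists were chosen with earlier results of these data known. List genes on chromosome X were left out. Alternatives to the gap, the peak threshold, the CTCF distance, the start distance, the joining and the loop rules are given in the closing section.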

Additional observations from a re-analysis of the deposited data

How the results depend on the processing

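The number of clusters rests on the joining and the peak threshold. It was 203 with gaps of at most 6 kb, 1932 with 20 kb, 712 where intervals ended at peaks not kept, and 85 at a minimum -log10 q-value of 10. The share linked to a coding promoter (lists labelled SMC1 and CTCF) was 10.8% and 35.0% at 6 kb, 19.3% and 50.2% at 20 kb, 10.3% and 35.8% where intervals ended at peaks not kept, 21.2% and 67.1% at the higher q-value, and 9.53% and 37.0% with loops of at least the median read pairs. It was 13.7% in the list labelled SMC1 with no CTCF peak within 1 kb. Added after seeing the data, anchors with a cluster peak and neither CTCF peak nor coding start gave 7.87% and 35.5%. The share that reached the nearest gene was 53.8% in the list labelled CTCF at 20 kb, 65.1% where intervals ended at peaks not kept, and 72.2% and 70.2% at the higher q-value. The median fold of cluster peaks was 2.49 at 6 kb, 2.62 at 20 kb, 2.98 at the higher q-value, 2.60 with no CTCF peak within 1 kb and 2.63 where intervals ended at peaks not kept. The cause of these shifts was not tested. Of 54 alternative values, 28 stayed within the intervals or limits of the reported ones and 26 moved. The 28 include all for starts over 2 kb away and for a start inside the anchor. They also include those for nearest genes by the centre of the interval, which are the same by construction. No paired analysis was possible because each target has 1 pooled list with no value per replicate. Peak lists carry no read depth, and the study's supplement gives fewer reads for CTCF than for SMC1 in this line. Peaks under the threshold therefore cannot be told from no cohesin or no CTCF.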

Other observations

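Clusters also looped to each other. With the label CTCF 144 pairs of clusters were joined by 512 loops, and with the label SMC1 30 pairs by 86 loops. Of the loops that left any interval, 7.37% and 4.98% ended on a cluster. The pair with most loops under the label CTCF joined the cluster beside CD274, which encodes the checkpoint ligand PD-L1, to the one nearest to RIC1, with 22 loops and 1057 read pairs across 52.7 kb. The RIC1 cluster (chr9:5547898-5594552) holds 8 peaks, and 50.1% of it lies in PDCD1LG2, the gene of the related ligand PD-L2. Its 14 promoter loops in that list reached CD274, PDCD1LG2, PLGRKT and INSL6. The pair of clusters at CD82, a tetraspanin, had 16 loops with 1462 read pairs, and the clusters at TNFSF9 and CD70, neighbouring TNF family ligands, had 14 with 989. Among loops labelled SMC1 the cluster pair of FSCN1 and RNF216 had 10 loops with 252 read pairs, TNFSF9 and CD70 had 9 with 417, and the outer BCL2 pair 9 with 214. These pairs were picked after their values were seen.

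Of the antigen receptor genes, 2 clusters touched an immunoglobulin locus, each with 5 peaks. One lay nearest to RPIA, over 6 immunoglobulin genes of the kappa region (chr2:88841517-88867303), and one nearest to VPREB1, over a variable pseudogene (chr22:22215877-22256982).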
